A study of Mus musculus with 14 samples.

Results

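The matrix metalloproteinases Mmp2, Mmp3, Mmp7, Mmp9, Mmp12, Mmp13 and Mmp14 and the tissue inhibitors of metalloproteinases Timp1, Timp2 and Timp3 were examined in isolated mouse pancreatic islets. These 10 genes, of 19938 measured, were chosen by name because Mmp12 had been seen to rise in islets with active IKK2, and the question was whether others of the family rose with it. Mmp12 in the IKK2-CA islets therefore chose the set, and its values there are a description with no test. Of the other 9 members, 0 passed the test in any comparison, beside 2.25% of all genes in IKK2-CA against control islets, 0.0752% in IKK2-CA against Pdx-1+/- islets and 0.0953% in Pdx-1+/- against control islets.

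Islets came from untreated mice aged 11 weeks, of C57BL/6 and NMRI strain background (1:1), and RNA was measured on Affymetrix Mouse Gene 1.0 ST arrays. The study had 5 arrays of control mice, whose alleles the labels do not give. It had 4 arrays of Pdx-1+/- mice, in which the driver Pdx-1-tTA leaves 1 working copy of Pdx-1, a transcription factor that maintains β-cells. It had 5 arrays of diabetic IKK2-CApdx-1 mice (IKK2-CA below), in which the same driver turns on constitutively active IKK2, the kinase that switches on NF-κB, in β-cells. IKK2-CA and Pdx-1+/- mice thus share the driver and the loss of 1 Pdx-1 copy, while active IKK2 and diabetes cannot be told apart in this design. Since no label states that the arrays of a group are different mice, the p-values measure the spread between arrays, part of which may be technical.

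Matrix metalloproteinases (MMPs) are zinc endopeptidases that cut collagens, laminins, elastin and other matrix proteins, and also free or inactivate cytokines and receptors. Most are secreted as inactive proenzymes, and a few, such as Mmp14, are held in the cell membrane. TIMPs bind the active site of MMPs, and Timp2 also bridges proMMP2 to Mmp14 on the cell surface, where proMMP2 is activated. In islets the peri-islet capsule and the vessel basement membranes are the main matrix that such enzymes meet, and leukocytes, stellate cells, endothelial cells and duct cells are known sources of them.

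Promoters of Mmp12 and of its inducible relatives are shown first, because many secreted MMP genes are known to be switched on through a binding site for AP-1, a transcription factor made of Fos and Jun proteins. Of the 10 members, 8 had a promoter in the RefSeq table of build GRCm38.p6 (all but Mmp2 and Mmp9). The last 120 bases before the start are printed, on the strand of the gene, with the AP-1 motif TGANTCA in capitals where it occurs; Mmp12 and Mmp7 each have 2 annotated starts, of which the first is printed for Mmp7.
Mmp12 upstream start, chr9:7344277-7344396, plus strand: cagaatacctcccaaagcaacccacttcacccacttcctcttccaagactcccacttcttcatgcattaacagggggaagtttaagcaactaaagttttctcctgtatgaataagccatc
Mmp12 downstream start, chr9:7347254-7347373, plus strand: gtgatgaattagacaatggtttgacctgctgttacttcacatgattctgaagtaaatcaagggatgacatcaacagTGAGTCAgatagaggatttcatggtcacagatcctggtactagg
Mmp3, chr9:7445702-7445821, plus strand: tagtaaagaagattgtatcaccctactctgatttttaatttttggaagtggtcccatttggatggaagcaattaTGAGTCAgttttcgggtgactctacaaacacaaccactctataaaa
Mmp7 first start, chr9:7691970-7692089, plus strand: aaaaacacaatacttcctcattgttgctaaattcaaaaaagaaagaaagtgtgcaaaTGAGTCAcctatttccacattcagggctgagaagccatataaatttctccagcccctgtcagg
Mmp13, chr9:7272394-7272513, plus strand: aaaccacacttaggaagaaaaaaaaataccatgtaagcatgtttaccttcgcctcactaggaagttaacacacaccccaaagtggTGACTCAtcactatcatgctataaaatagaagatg

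The full 250 bases before each start were searched on both strands. The AP-1 motif began 44 bases before the downstream Mmp12 start, 46 before Mmp3, 63 before the first Mmp7 start (the one printed) and 35 before Mmp13. It was not in the windows of the upstream Mmp12 start, the second annotated Mmp7 start, Mmp14, Timp1, Timp2 or Timp3. Of 32851 RefSeq windows of the same length, 6.75% hold it. Mmp14 and the 3 inhibitors instead hold the GC box GGGCGG, a motif of housekeeping promoters found in 32.7% of windows. The TATA box TATAAA, in 12.4% of windows, was present in Mmp3, at the first Mmp7 start and in Mmp13, and was absent from both Mmp12 windows and from that of the second Mmp7 start. The NF-κB motif, in 3.9% of windows, was in none of the searched member windows. For Timp1, printed here, and for Timp3 the GC box lies on the opposite strand and reads CCGCCC.
Timp1, chrX:20870046-20870165, plus strand: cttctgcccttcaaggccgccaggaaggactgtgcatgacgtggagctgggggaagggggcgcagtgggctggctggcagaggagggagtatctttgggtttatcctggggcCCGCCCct
A motif match describes letters in a window and does not show that a factor binds there.

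Values are deposited log2 signals after robust multichip averaging (RMA), on which 1 unit is a doubling; they compare arrays for the same gene and not genes with each other. Array medians over all genes lay between 6.45 and 6.55. As a check of the labelled tissue, Ins2, which encodes insulin, lay between 12.31 and 12.68 on the 14 arrays. Of 11 measured genes of the exocrine acinar cells, 7 lay within 0.6 log2 units of the lowest array maximum on every array. Ctrb1, among these, lay between 13.64 and 13.73. The acinar genes Ctrc, Ptf1a, Bhlha15 and Rbpjl lay lower, with Ctrc at 8.83 on IKK2-CA array 5. The array maxima lay between 13.64 and 13.73. All 14 preparations thus held exocrine RNA, and Ins2 does not show how pure the islets were. Markers of 3 arrays stood apart: the mean deviation of 9 intestinal enterocyte genes from their mean over all arrays was 3.28 log2 units on Pdx-1+/- array 4 and 1.39 on control array 3, and that of 9 adipocyte genes was 2.37 on IKK2-CA array 5. Values without 1 or more of them are given beside many of the larger differences that they move. In whole islets, a change in the number of cells of a type and in the RNA per cell cannot be told apart.

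Mmp12 (transcript cluster 10583056), the macrophage elastase, was at 5.58, 5.68, 5.93, 5.78 and 5.61 on control arrays 1 to 5. On Pdx-1+/- arrays 1 to 4 it was at 5.77, 5.57, 5.42 and 5.65. On IKK2-CA arrays 1 to 5 it was at 7.94, 7.62, 6.53, 7.90 and 9.52. Every IKK2-CA array lay above every other array, array 3 by the least and array 5 by the most, and all 9 control and Pdx-1+/- arrays lay below their array's median over genes. The mean of 7.90 ± 1.07 (SD, n = 5) compared with 5.72 ± 0.14 (SD, n = 5) in control and 5.60 ± 0.15 (SD, n = 4) in Pdx-1+/- islets. This is 4.55-fold the control mean (log2 2.19, SE 0.37) and 4.92-fold the Pdx-1+/- mean (log2 2.30, SE 0.39). Since the control and Pdx-1+/- signals may be near background, where fold changes are compressed, these folds may understate the change. Without IKK2-CA array 5 the differences were 1.78 and 1.89, and without array 3 they were 2.53 and 2.64.

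Mmp12 in Pdx-1+/- islets was not used to choose the set. It differed from control by -0.11 log2 units, with a 95% interval of -0.94 to 0.71 (limma adjusted p = 0.999), so a difference larger than about 1 log2 unit in either direction lies outside the interval.

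**Figure D1:**
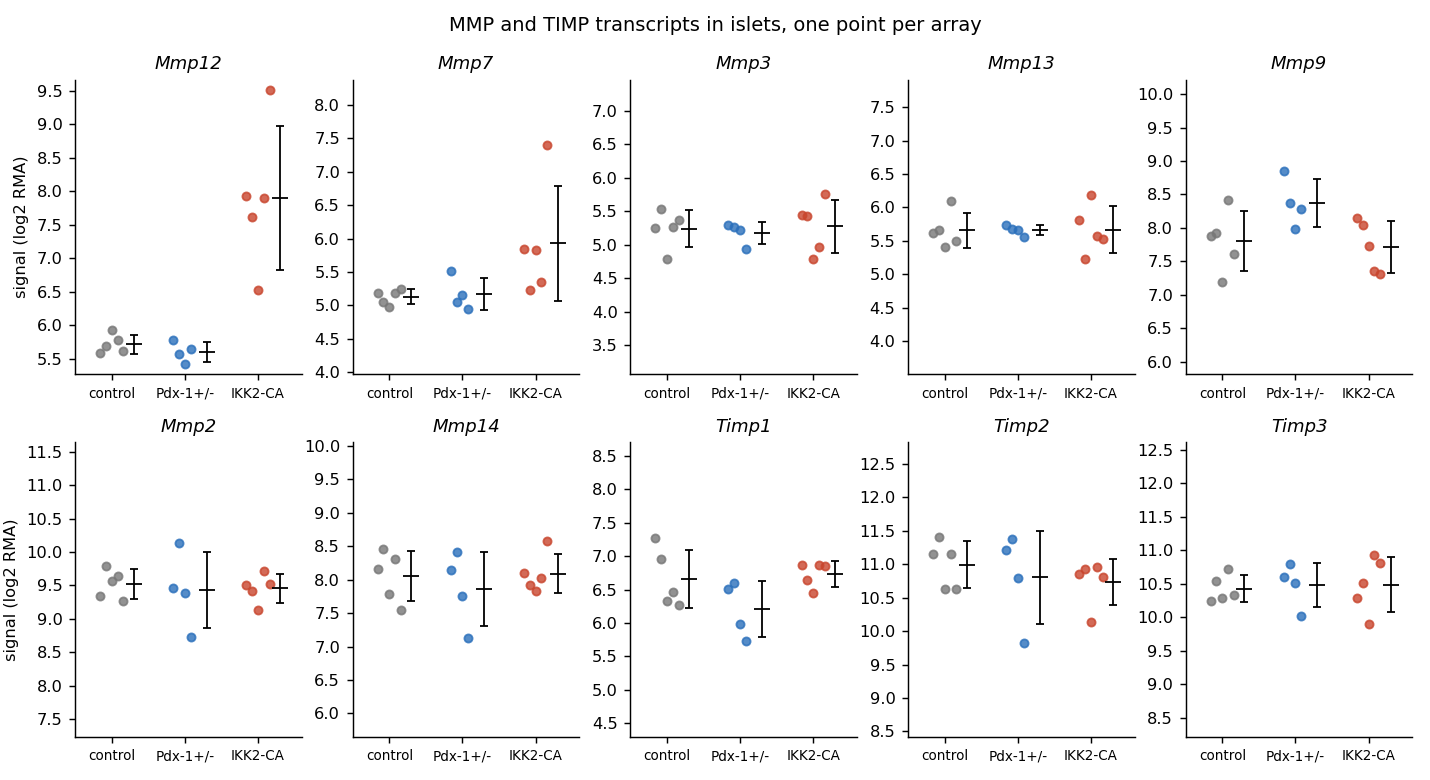
Signal (log2 RMA) of the 10 members, 1 point per array and 1 column per genotype, with the mean and SD of each group as a bar beside the points; every panel spans the same height in log2 units. The 5 IKK2-CA arrays of Mmp12 lie between 6.53 and 9.52, above all 9 others; in Mmp7 only IKK2-CA array 5, at 7.39, stands far above the rest.

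Tests were made with limma over all genes, with Benjamini-Hochberg adjustment and a threshold of 0.05. At an unadjusted p under 0.05 stood 1 of the 9 other members in IKK2-CA against control islets (Mmp7), where 15.7% of all genes did. In IKK2-CA against Pdx-1+/- islets these were 3 of 9 (Mmp7, Mmp9 and Timp1), beside 7.02% of genes. This count depended on the arrays. It was 0 of 9 with array weights, and 0 of 9 without the 2 arrays with the highest enterocyte and adipocyte genes. Of all genes, 1901 and 1889 then had such a p, beside 1399 in the main fit. Under the other alternatives the count ran from 1, as without all 3 arrays that stood apart, to 3. In Pdx-1+/- against control islets the count was 1 of 9 (Mmp9), beside 4.71% of genes. The median differences of the 9 members were 0.03, 0.03 and -0.06 log2 units, and those of all genes were -0.012, -0.015 and -0.0049. The comparisons with IKK2-CA share the same IKK2-CA arrays, so their counts are not independent.

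**Figure D2:**
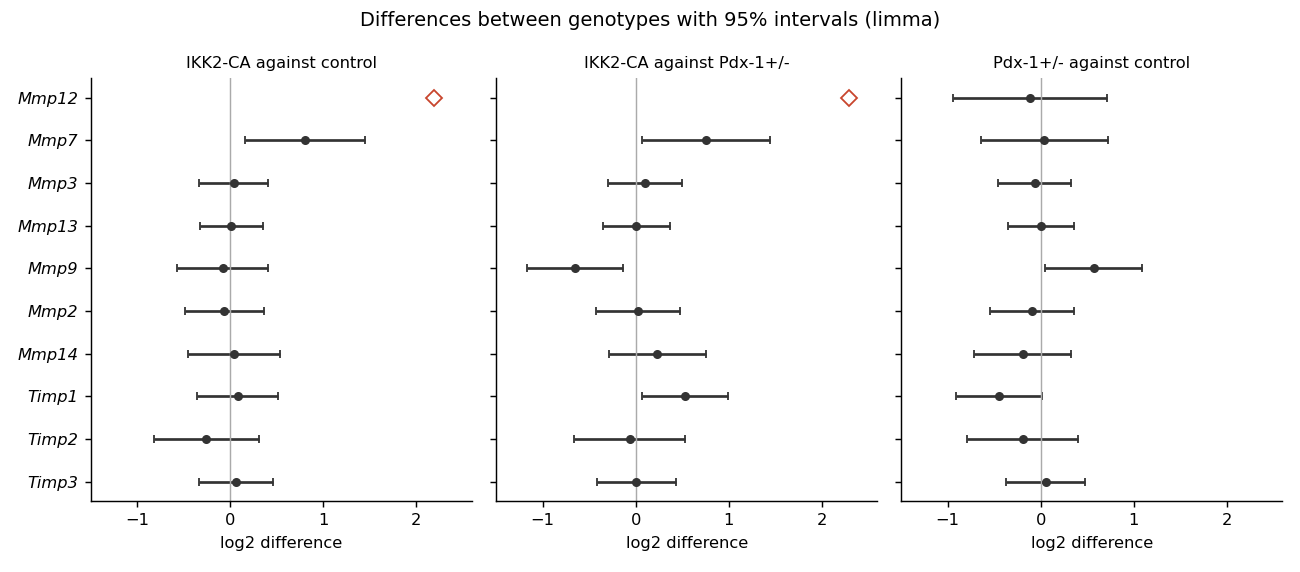
Log2 differences of the 10 members in the 3 comparisons, with 95% intervals as bars; open diamonds are Mmp12 in the comparisons that chose it, drawn without an interval. Intervals of Mmp7 (0.80 and 0.76 in the comparisons with IKK2-CA) and of Mmp9 and Timp1 (-0.65 and 0.53 in IKK2-CA against Pdx-1+/-) leave out 0, but none of these passed the adjusted threshold.

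Among the secreted enzymes, Mmp7 (matrilysin, an enzyme of gland and duct epithelium with a short domain structure) came nearest to Mmp12. It was at 5.19, 5.06, 4.97, 5.19 and 5.25 on the control arrays and at 5.52, 5.06, 5.15 and 4.95 on the Pdx-1+/- arrays. On IKK2-CA arrays it was at 5.84, 5.24, 5.82, 5.35 and 7.39. IKK2-CA arrays 1, 3 and 5 lay above all others, array 2 lay just below the highest control array, and the groups overlapped. The difference from control was 0.80 log2 units (SE 0.30, 95% interval 0.15 to 1.45, 1.74-fold, limma adjusted p = 0.194) and that from Pdx-1+/- was 0.76 (SE 0.32, interval 0.07 to 1.44, adjusted p = 0.66). Without IKK2-CA array 5 the differences fell to 0.43 and 0.39. Mmp7 lay below the array median on 13 of 14 arrays, the exception being IKK2-CA array 5, the array with the highest adipocyte genes. The part of that array's other cells in its Mmp7 value was not tested.

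Mmp3 (stromelysin-1, which cuts proteoglycans and activates other proMMPs) ranged from 4.79 to 5.53 in control, 4.94 to 5.29 in Pdx-1+/- and 4.78 to 5.75 in IKK2-CA islets. Its difference between IKK2-CA and control was 0.03 log2 units (interval -0.34 to 0.41). Mmp13 (the main interstitial collagenase of rodents) ranged from 5.42 to 6.10, from 5.56 to 5.74 and from 5.23 to 6.18, with a difference of 0.01 (interval -0.33 to 0.35). Both lay below the array median on all 14 arrays, so their signals may be near background and small changes could not be seen. A rise in signal as large as that of Mmp12 lies outside both intervals.

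Mmp9 (gelatinase B, which is stored by neutrophils and cuts denatured collagen and basement membrane collagen) was at 7.89, 7.92, 7.19, 8.42 and 7.61 in control islets. It was at 8.84, 8.37, 7.99 and 8.28 in Pdx-1+/- islets and at 8.16, 8.05, 7.73, 7.35 and 7.31 in IKK2-CA islets. The highest arrays were Pdx-1+/- array 1 and control array 4 and the lowest were control array 3 and IKK2-CA arrays 5 and 4, and every pair of groups overlapped. Against Pdx-1+/- islets the IKK2-CA difference was -0.65 log2 units (SE 0.24, interval -1.17 to -0.13, limma adjusted p = 0.564), the sign opposite to that of Mmp12. Pdx-1+/- against control gave 0.57 (SE 0.24, interval 0.05 to 1.09, adjusted p = 0.999), and IKK2-CA against control gave -0.08 (interval -0.57 to 0.41, adjusted p = 0.924). Mmp9 of IKK2-CA array 5, the array with the highest Mmp12, was the lowest of its group.

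Mmp2, Mmp14 and Timp2 encode the parts of a known cell-surface assembly: gelatinase A, its membrane-bound activator and the inhibitor that links them. Mmp2 was at 9.35, 9.79, 9.57, 9.64 and 9.26 in control, at 9.47, 10.14, 9.38 and 8.74 in Pdx-1+/- and at 9.50, 9.42, 9.13, 9.72 and 9.52 in IKK2-CA islets. Mmp14 was at 8.16, 8.46, 7.78, 8.31 and 7.55, at 8.14, 8.41, 7.75 and 7.13, and at 8.10, 7.93, 7.83, 8.02 and 8.57 in the same order. Timp2 was at 11.15, 11.41, 10.63, 11.16 and 10.62, at 11.21, 11.38, 10.79 and 9.83, and at 10.85, 10.93, 10.14, 10.96 and 10.81. The groups overlapped for all 3 genes, and the widest spread was within the Pdx-1+/- group, where array 2 was high and array 4 the lowest of the 14.

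Between IKK2-CA and control islets, Mmp2 differed by -0.07 log2 units (interval -0.49 to 0.36), Mmp14 by 0.04 (interval -0.45 to 0.53) and Timp2 by -0.26 (interval -0.82 to 0.30, limma adjusted p = 0.726). Without IKK2-CA array 3, on which Timp2 was lowest of its group, Timp2 differed by -0.11. Against Pdx-1+/- islets the differences were 0.03 (interval -0.43 to 0.48), 0.23 (interval -0.29 to 0.76) and -0.07 (interval -0.66 to 0.53). With array 4 of the Pdx-1+/- group and array 5 of the IKK2-CA group left out, these last became -0.22, -0.13 and -0.41, and 0 of the 9 members passed.

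Across the 14 arrays the signals of the 3 genes rose and fell together. For Mmp14 and Timp2, Pearson's r was 0.81 (permutation p = 0.00044, adjusted over 3 relations 0.00066) and Spearman's rho 0.78 (permutation p = 0.0015, adjusted 0.0045). For Mmp14 and Mmp2, r was 0.78 (permutation p = 0.0011, adjusted 0.0011) and rho 0.68 (permutation p = 0.009, adjusted 0.009). For Timp2 and Mmp2, r was 0.85 (permutation p = 0.00012, adjusted 0.00036) and rho 0.73 (permutation p = 0.0042, adjusted 0.0063). With the group means removed, r was 0.86, 0.80 and 0.85. Without the 2 arrays farthest from the median on the first gene of each pair, r was 0.82 and 0.72 (in both cases array 4 of Pdx-1+/- and array 5 of IKK2-CA) and 0.63 (array 4 of Pdx-1+/- and array 3 of IKK2-CA). The mean deviations of 8 stellate cell and 11 endothelial markers were also lowest on Pdx-1+/- array 4 (-0.58 and -0.48), which had the highest enterocyte genes. On Pdx-1+/- array 2 these means were 0.05 and 0.11. The stellate cell mean was highest on IKK2-CA array 4 (0.56) and the endothelial mean on IKK2-CA array 5 (0.45). Other genes of the lists below shared the array pattern. Lamb1, Lamc1, Nid1 and Reck were highest of the 14 on Pdx-1+/- array 2 (9.02, 9.82, 10.78 and 9.02). They were lowest on array 4 (7.42, 8.31, 9.36 and 7.52). The share of all gene pairs with such r and the part of cell makeup in these correlations were not tested.

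**Figure D3:**
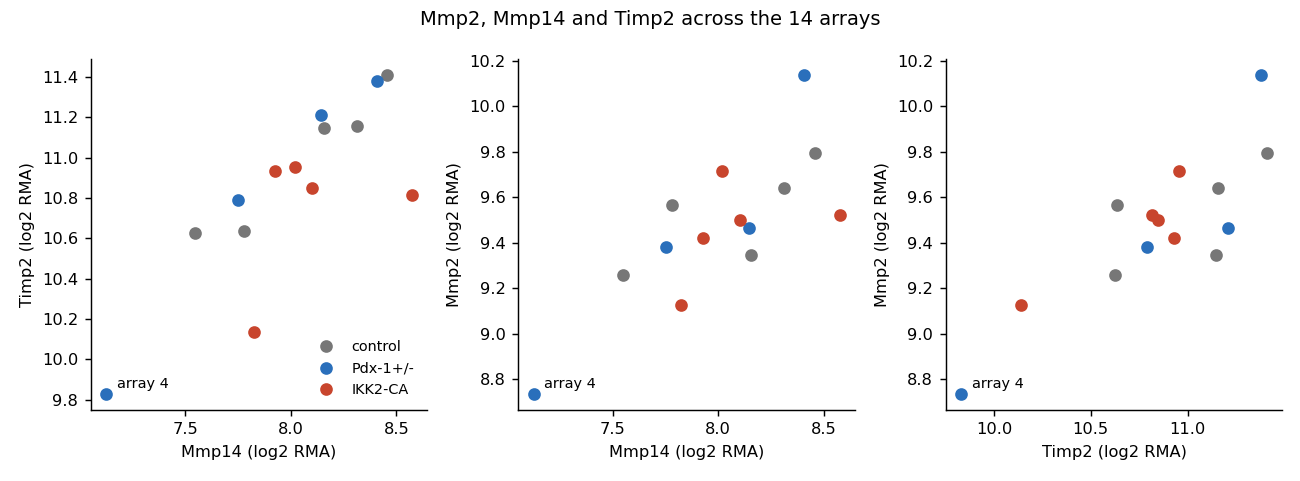
Signals (log2 RMA) of Mmp14 against Timp2, Mmp14 against Mmp2 and Timp2 against Mmp2, 1 point per array and coloured by group, with Pdx-1+/- array 4 marked. The points of all 3 groups lie along 1 rising band, with r of 0.81, 0.78 and 0.85 over the 14 arrays.

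Among the inhibitors, Timp1 (a soluble inhibitor known to be induced by inflammation) was at 7.27, 6.95, 6.33, 6.46 and 6.27 on the control arrays. It was at 6.51, 6.59, 5.98 and 5.73 on the Pdx-1+/- arrays and at 6.86, 6.63, 6.44, 6.87 and 6.86 on the IKK2-CA arrays. Control arrays 1 and 2 were the highest of the 14, Pdx-1+/- array 4 the lowest, and the groups overlapped. The IKK2-CA difference was 0.08 log2 units from control (SE 0.20, interval -0.36 to 0.52, limma adjusted p = 0.921) and 0.53 from Pdx-1+/- (SE 0.22, interval 0.06 to 0.99, adjusted p = 0.647). Pdx-1+/- against control gave -0.45 (SE 0.22, interval -0.92 to 0.01, adjusted p = 0.999). Leaving out the same 2 arrays with intestinal or adipocyte genes brought the IKK2-CA difference from Pdx-1+/- islets to 0.34, so these arrays move it by over 1.5 times.

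Timp3, the inhibitor that stays bound to the matrix and also blocks ADAM proteases, ranged from 10.24 to 10.72 in control, from 10.02 to 10.79 in Pdx-1+/- and from 9.90 to 10.93 in IKK2-CA islets. Its differences were 0.06 (interval -0.34 to 0.46), 0.01 (interval -0.42 to 0.43) and 0.05 (interval -0.37 to 0.48) log2 units in IKK2-CA against control, IKK2-CA against Pdx-1+/- and Pdx-1+/- against control. A change of Timp3 as large as a doubling lies outside all 3 intervals. For Timp1 and Timp2 this also holds in IKK2-CA against control.

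Mmp12 lies in a block of 10 MMP genes on mouse chromosome 9, in the RefSeq order Mmp13, Mmp12, Mmp1b, Mmp3, Mmp1a, Mmp10, Mmp8, Mmp27, Mmp20 and Mmp7. All 10 were measured, and of the 9 others 0 passed in any comparison. Their differences from control in IKK2-CA islets ran from -0.08 (Mmp27) to 0.80 (Mmp7), and those from Pdx-1+/- islets from -0.15 (Mmp27) to 0.76 (Mmp7). Mmp13 and Mmp1b, the neighbours on either side of Mmp12, differed from control by 0.01 and -0.02. Mmp8, the collagenase that neutrophils store, differed by 0.15 (interval -0.07 to 0.36, limma adjusted p = 0.55). Mmp1a and Mmp1b are close copies of each other, and whether their probes tell them apart was not tested.

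**Figure D4:**
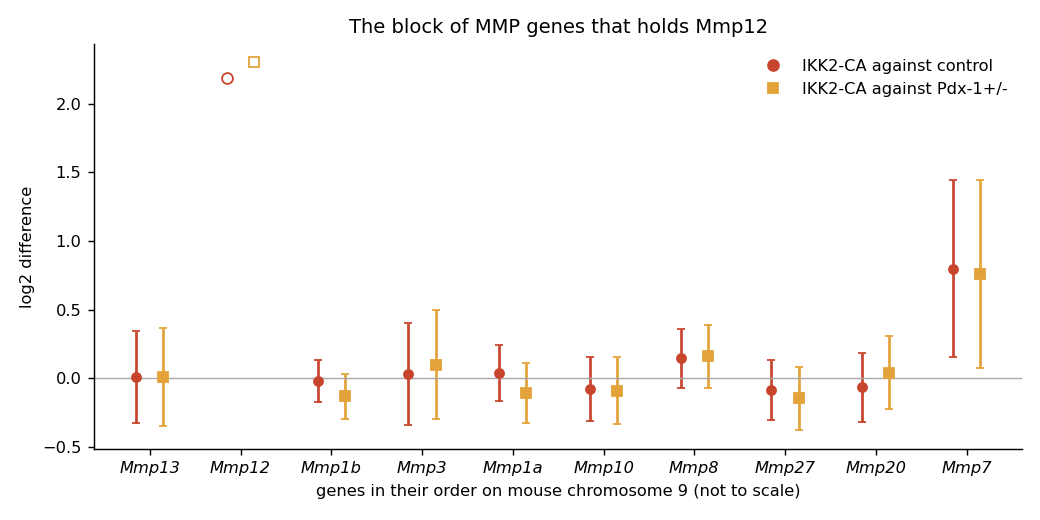
Log2 differences of the 10 MMP genes of the chromosome 9 block in gene order (not to scale), in IKK2-CA against control (circles) and against Pdx-1+/- (squares), with 95% intervals as bars and Mmp12 drawn open without an interval. Mmp12 stands at 2.19 and 2.30, its neighbours lie near 0, and Mmp7 at the far end lies at 0.80 and 0.76.

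Of 15 other MMPs measured, 1 rose in IKK2-CA against control islets and 0 fell. In this comparison 0.682% of all genes rose. The 1 gene was Mmp25, a membrane-anchored MMP known from leukocytes. It was at 4.80, 5.29, 5.31, 4.98 and 5.19 in control, at 4.93, 5.20, 5.12 and 5.42 in Pdx-1+/- and at 5.80, 5.72, 6.21, 5.71 and 6.68 in IKK2-CA islets. The IKK2-CA arrays lay above all others; 1.86% of all genes were so placed against control and 1.72% against Pdx-1+/-. Mmp25 rose 1.88-fold over control (log2 0.91, SE 0.18, limma adjusted p = 0.017), and was at 0.86 (SE 0.19, adjusted p = 0.13) against Pdx-1+/- islets, where 0 of the 15 passed. The call was lost without control array 4 (adjusted p = 0.0553) or IKK2-CA array 3 (adjusted p = 0.0503). Without IKK2-CA array 5 the Mmp25 differences were 0.75 and 0.69. Only on that array did Mmp25 lie above the array medians of 6.45 to 6.55, so its other signals may be near background. The other 14 ran from -0.21 (Mmp23) upward in IKK2-CA against control, and the median of the 15 was -0.04.

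Of 4 other inhibitors, 0 passed in any comparison. Timp4, an inhibitor of heart and adipose tissue, was at 5.25 to 5.63 in control, 5.27 to 5.82 in Pdx-1+/- and at 5.53, 5.57, 5.39, 6.39 and 7.97 in IKK2-CA islets. Only IKK2-CA arrays 4 and 5 lay above the other groups, and array 5, again, is the one with the highest adipocyte genes, whose part was not tested. The difference from control was 0.75 (SE 0.38, interval -0.06 to 1.55, limma adjusted p = 0.365), and 0.30 without IKK2-CA array 5. Reck, a membrane-anchored MMP inhibitor, differed by -0.25 (adjusted p = 0.70), and Pzp, a broad protease trap of plasma, by 0.22 (adjusted p = 0.365).

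Of 13 ADAM and ADAMTS proteases, 1 rose in both comparisons with IKK2-CA islets and 0 fell. Adam8, a membrane protease of leukocytes that sheds adhesion molecules, was at 6.06, 6.66, 6.17, 6.15 and 6.39 in control and at 6.30, 6.33, 6.15 and 6.29 in Pdx-1+/- islets. In IKK2-CA islets it was at 7.44, 7.15, 7.30, 7.19 and 8.20, above all other arrays. It rose 2.25-fold over control (log2 1.17, SE 0.17, limma adjusted p = 0.00434) and 2.28-fold over Pdx-1+/- islets (log2 1.19, SE 0.18, adjusted p = 0.0242). Without IKK2-CA array 5 the Adam8 differences were 0.99 and 1.01. The call against control held in all 25 alternatives. The call against Pdx-1+/- islets was lost in 7 of 25, namely without any 1 of the 4 Pdx-1+/- arrays (adjusted p 0.0803 to 0.125) or IKK2-CA array 3 (0.0536), with the replicate block (0.0788) and when only those groups were fitted (0.226).

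Of 5 receptors that dock or clear MMPs, 1 rose in IKK2-CA against control islets. Cd44, the hyaluronan receptor that docks Mmp9 and Mmp7 at the cell surface, was at 7.95, 7.59, 8.09, 8.25 and 8.35 in control and at 7.84, 8.36, 8.28 and 7.64 in Pdx-1+/- islets. It was at 8.56, 8.84, 9.02, 8.85 and 10.12 in IKK2-CA islets, above both other groups. It rose 2.05-fold over control (log2 1.03, SE 0.25, limma adjusted p = 0.0463) and was at 1.05 (SE 0.27, adjusted p = 0.246) against Pdx-1+/- islets. Without IKK2-CA array 5 the Cd44 differences were 0.77 and 0.79. The call was lost in 13 of 25 alternatives, with adjusted p up to 0.126: without any 1 of the control arrays, without Pdx-1+/- array 1, 2 or 3, without IKK2-CA array 2 or 3, without the 3 arrays that stood apart (0.0549), with only those groups fitted and with every cluster tested.

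The remaining lists held no gene that passed. Of 8 cathepsins, lysosomal proteases that also cut matrix, 7 had a positive difference in IKK2-CA against control, with a median of 0.29; 46.4% of all genes had one. Ctss, which trims the invariant chain in antigen-presenting cells, was at 1.04 (SE 0.28, limma adjusted p = 0.065), Ctsh at 0.71 (adjusted p = 0.0967) and Ctsz at 0.50 (adjusted p = 0.159). Without IKK2-CA array 5 these were 0.71, 0.48 and 0.30. Of 12 cytokines and receptors that can induce MMPs, 11 had a positive difference with a median of 0.50; Il1a was at 1.20 (adjusted p = 0.186), Il1b at 1.01 (adjusted p = 0.057) and the receptor Cd40 at 0.96 (adjusted p = 0.113). Without IKK2-CA array 5 these were 0.91, 0.80 and 0.68. The median of all genes was -0.012.

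Of 8 MMP activators and plasminogen system genes, Plaur, the urokinase receptor, was at 0.45 (limma adjusted p = 0.478; 0.29 without IKK2-CA array 5), Plat, tissue plasminogen activator, at 0.17 (adjusted p = 0.791) and Bsg, an inducer of MMPs, at -0.16 (adjusted p = 0.32). Of 12 AP-1 and ETS factors, Spi1, the myeloid factor PU.1, was at 0.83 (limma adjusted p = 0.0873), Ets1 at 0.47 (adjusted p = 0.17) and Fosb at -0.33 (adjusted p = 0.543). Without IKK2-CA array 5, Spi1 was at 0.60 and Ets1 at 0.30. The 19 matrix substrates had a median of -0.03 and a range of -0.34 to 0.33, with the basement membrane genes Lama2, Nid1 and Lamc1 each at -0.34. In Pdx-1+/- against control islets, 0 genes of any of these 9 lists passed.

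Markers of the cell types that can make MMPs were read on the same arrays. Of 12 dendritic cell markers, 8 rose in IKK2-CA against control islets, beside 0.682% of all genes. These were Itgax, Flt3, Xcr1, Clec9a, Itgae, Ccr7, Fscn1 and Cd209a. Against Pdx-1+/- islets 5 rose (Itgax, Xcr1, Itgae, Ccr7 and Fscn1), beside 0.0752%. Zbtb46 (0.02 against control), Batf3, Siglech and Clec10a (-0.15 against Pdx-1+/-) passed in neither. The list mean deviation ran from -0.63 to -0.31 in control and from -0.44 to -0.22 in Pdx-1+/- islets. It was 1.52 on IKK2-CA array 5 and 0.36 to 0.68 on the other IKK2-CA arrays. Of 19 macrophage markers, 1 rose against control (Ccr2, a chemokine receptor of recruited monocytes, log2 1.71, SE 0.36, limma adjusted p = 0.0251) and 0 against Pdx-1+/-; their mean ran from -0.42 to 0.09, from -0.18 to 0.09 and from -0.40 to 0.78. Against control 16 of the 19 had a positive difference, beside 46.4% of all genes, and 5 had an unadjusted p under 0.05: Ccr2, Cybb (0.76), Aif1 (0.58), Fcgr1 (0.58) and, lower, Cd163 (-0.52). The median of the list was 0.10, and the commonly used macrophage genes Adgre1, Cd68 and Csf1r were at 0.05, 0.26 and -0.01. Without IKK2-CA array 5, Ccr2 was at 1.29, Cybb at 0.46, Aif1 at 0.38 and Fcgr1 at 0.38. Cd68, Cd14, C1qc, Marco and Cx3cr1 also stayed positive without it. Adgre1 (-0.04), Lyz2 (-0.15), Itgam (-0.10), C1qa (-0.06), C1qb (-0.02), Msr1 (-0.07) and Mertk (-0.17) turned negative, and Csf1r (-0.13), Mrc1 and Cd163 stayed so. Against Pdx-1+/- islets, with all 14 arrays, 12 of the 19 were positive, beside 45% of all genes. An unadjusted limma p under 0.05 was found for 5, beside 7.02% of all genes. These were Ccr2 (1.78), Aif1 (0.60), Fcgr1 (0.53) and, lower, Mrc1 (-0.51) and Cd163 (-0.55). Without IKK2-CA array 5, Lyz2 (-0.15), Itgam (-0.14), C1qa (-0.14), C1qb (-0.15) and C1qc (-0.04) turned negative. Cd14, Fcgr1, Marco, Cx3cr1, Aif1, Cybb and Ccr2 stayed positive there. In both comparisons with IKK2-CA islets, 0 of 10 neutrophil, 0 of 8 stellate cell, 0 of 11 endothelial, 0 of 7 duct cell, 0 of 6 B cell, 0 of 9 adipocyte and 0 of 9 enterocyte markers passed. Of 11 acinar markers 0 passed, but 7 of them lay within 0.6 log2 units of the lowest array maximum on every array, so saturation may hide a change. Of 8 T and NK cell markers 1 rose in each (Klrb1b, a receptor of NK cells), with list means of -0.36 to -0.14 in control, -0.50 to -0.02 in Pdx-1+/- and -0.20 to 1.19 in IKK2-CA islets.

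IKK2-CA array 4 had the lowest macrophage mean of its group (-0.40) and Mmp12 at 7.90, equal to the group mean, while array 3 had the lowest Mmp12 of the group (6.53) with a dendritic cell mean of 0.68, the second highest. On array 5 Mmp12, Mmp7, Mmp25 and Adam8 were the highest of the 14, and so were the means of the dendritic cell, macrophage, adipocyte, T and NK cell (1.19), B cell (0.89), endothelial (0.45) and neutrophil (0.19) lists. The acinar (-0.60), enterocyte (-0.56) and beta cell (-1.04) means were lowest there. The part of each cell type in the MMP values was not tested. Of 8 beta cell markers, 5 fell in IKK2-CA against control islets (Mafa, Slc2a2, G6pc2, Ucn3 and Pdx1) and 0 against Pdx-1+/- islets. Of all genes, 2.25% passed in either direction against control. In Pdx-1+/- against control islets 0 of the 8 passed, and 0 had a positive difference, beside 48.2% of all genes. There the list median was -0.89, beside -1.19 in IKK2-CA against control, and 6 had an unadjusted limma p under 0.05, beside 4.71%.

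**Figure D5:**
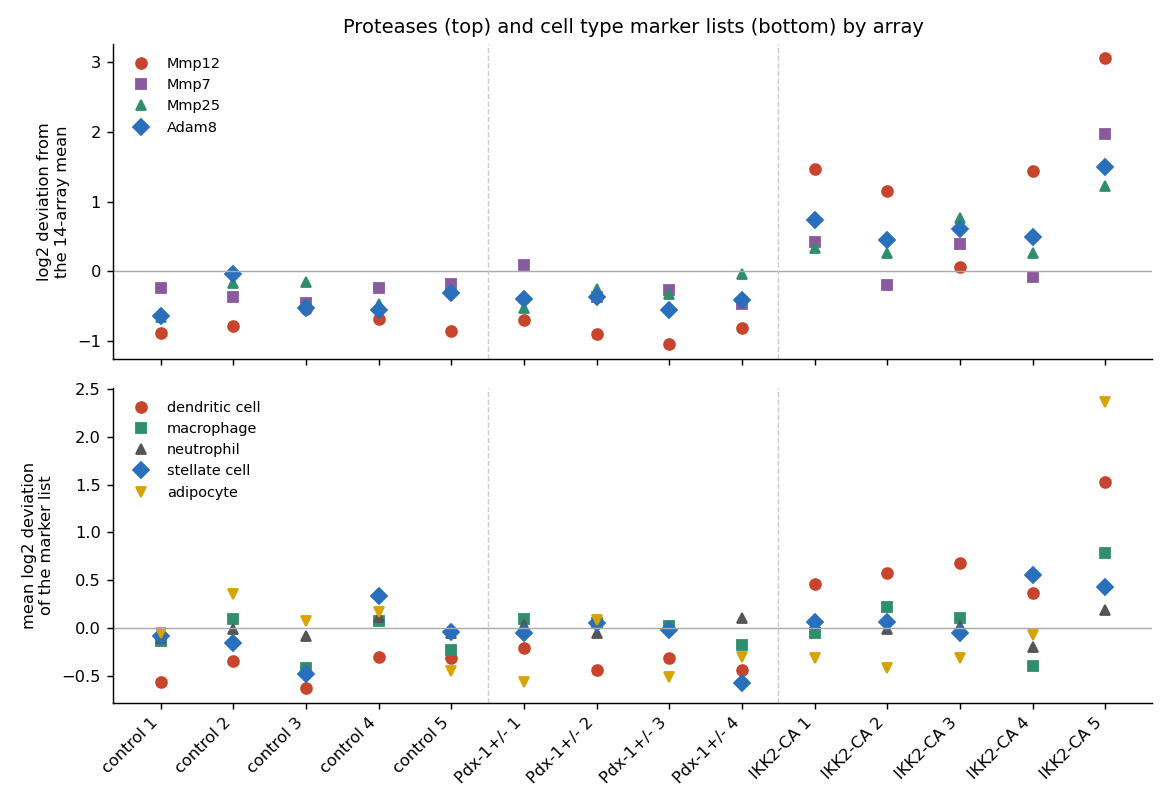
Top: log2 deviation of Mmp12, Mmp7, Mmp25 and Adam8 from their mean over 14 arrays. Bottom: mean log2 deviation of 5 cell type marker lists on the same arrays, with dashed lines between the control, Pdx-1+/- and IKK2-CA groups; dendritic cell markers lie between 0.36 and 1.52 on the IKK2-CA arrays and below 0 on the others.

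The genes whose pattern over the 14 arrays was most like that of Mmp12 were F2rl2, Nudt17, Kmo, Ccl17 and Ccl22. Pearson's r was 0.96 for F2rl2, of the thrombin receptor family, and 0.94 for Nudt17. It was also 0.94 for Kmo, an enzyme of tryptophan breakdown, and for each of the chemokines Ccl17 and Ccl22. Spearman's rho with these genes was 0.83, 0.69, 0.65, 0.65 and 0.74. For Timp1 they were Ifi205 (r 0.91), Tmem119 (0.90), Mpzl2 (0.89), Myadm (0.89) and Abcb1b (0.88). No gene stood in both lists. These were picked as the highest of all genes and are a description.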

How the data were processed

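The 14 deposited columns hold log2 values per transcript cluster, made by the authors with robust multichip averaging in Affymetrix Expression Console, per the labels' protocols and the submitters' processing notes; its version, the array's genome build and the log base were not given in the sources used here, and the base was read from the values' range. Of 35556 clusters, 21789 carried 1 gene symbol in the platform annotation (1621 carried several, 12146 were not listed); for a gene with several clusters that of highest mean stood for it, giving 19938 genes with no filter on signal. Each member had a single cluster. No further normalization was applied.

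Genes were tested with limma 3.58.1 in R 4.3.3 (lmFit and eBayes, 3 group means over 14 arrays, 11 residual and 3.46 prior degrees of freedom), with Benjamini-Hochberg adjustment over all genes of a comparison and a threshold of 0.05. SE is the moderated standard error and intervals are at 95%, and folds are back-transformed log2 differences. Correlations used 100000 permutations, two-sided. Precision is limited by the few arrays and by dim signals. Promoter motifs were searched in 250 bases before each RefSeq start.

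The members and lists were chosen with earlier results of these data known. Named were all members and, of each list, the genes that passed or otherwise the up to 3 largest differences in IKK2-CA against control. Two-group fits, other normalizations, array weights, trend and robust estimation, a low-signal filter, all clusters, cluster means, the replicate number as a block and leaving out arrays were tried as alternatives. Same-numbered arrays were not paired.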

Additional observations from a re-analysis of the deposited data

Results flagged for a closer look

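Of 93 group sets tested (31 named genes in 3 groups), 8 held an array whose gap to the nearest other array exceeded Dixon's limit; chance flags about 1 in 20 sets. Among the members, Mmp7 was at 7.39 on IKK2-CA array 5, with the other 4 arrays of the group between 5.24 and 5.84. Timp2 was at 10.14 on IKK2-CA array 3, with the others between 10.81 and 10.96. Among the listed proteases, Adam8 was at 8.20 on IKK2-CA array 5 (others 7.15 to 7.44), Ctss at 10.88 on the same array (others 8.96 to 9.45) and Ctsh at 9.33 on it (others 7.98 to 8.36). Ctss was at 8.20 on Pdx-1+/- array 4 (others 8.50 to 8.55), Bsg at 10.20 on control array 3 (others 10.06 to 10.09) and Cd40 at 5.57 on Pdx-1+/- array 3 (others 6.08 to 6.13). Of these 8 values, 4 lie on IKK2-CA array 5.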

How the results depend on the processing

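The count of members other than Mmp12 past the threshold was 0 in every comparison under all 25 alternatives, leaving out each array in turn included (range 0 to 0), except that Mmp3 was not tested under the filter that dropped the lowest 30% of genes. Mmp7 against control ran from 0.39 (without the 3 arrays with intestinal or adipocyte genes) to 0.97 (without IKK2-CA array 2), and its adjusted p from 0.0998 to 0.392. Over all genes, the count past the threshold in IKK2-CA against control was 448 and ran from 120 to 1431: 1431 with array weights, 255 with every cluster, 241 with only those groups fitted, 186 without the 3 arrays, and 120 to 980 when 1 array was left out. Against Pdx-1+/- it was 15 and ran from 1 (only those groups fitted) to 66, with 52 under array weights or without the 2 arrays that stand apart and 48 without 3. In Pdx-1+/- against control it was 19 and ran from 9 to 73, with 73 under array weights and 11 without 3 arrays. The cause of these shifts was not tested.

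The replicate block gave 0 members in each comparison, and 197, 9 and 9 genes in all; Adam8 against Pdx-1+/- islets was then at adjusted p = 0.0788. Of 13 same-number pairs, 2 had a correlation of deviations over 0.1 (range -0.39 to 0.36) and 1 array matched its own number best, so the number was taken as a label only. For Mmp3 and Mmp13, low signal limits what could be seen.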
